A study of Mus musculus with 40 samples.

Results

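The calcium/calmodulin-dependent protein kinase (CaM kinase) genes and the CaMKII inhibitor genes were followed through 4 RNA fractions of the mouse forebrain in 2 lines. The 10 genes were chosen by symbol alone, through the Ensembl identifier of each row, out of 41388 genes counted in each of 40 libraries. They are the 4 genes of the catalytic CaMKII subunits (Camk2a, Camk2b, Camk2d and Camk2g), the 2 CaMKII inhibitor genes (Camk2n1 and Camk2n2), the CaM kinase kinases Camkk1 and Camkk2, their nuclear substrate kinase Camk4, and Camkv, a vesicle-associated relative that lacks kinase activity. By the coordinates in the files, on GRCm38, Camk2b (ENSMUSG00000057897) lies at chr11:5969644-6066362 on the minus strand, Camk2d (ENSMUSG00000053819) at chr3:126596302-126844913 on the plus strand, and Camk2g (ENSMUSG00000021820) at chr14:20734875-20794088 on the minus strand. Camk2n1 (ENSMUSG00000046447) lies at chr4:138454314-138460123 on the plus strand and Camk2n2 (ENSMUSG00000051146) at chr16:20619215-20621287 on the minus strand. Camkk1 (ENSMUSG00000020785) lies at chr11:73019008-73042073 on the plus strand, Camkk2 (ENSMUSG00000029471) at chr5:122731173-122779410 on the minus strand, and Camkv (ENSMUSG00000032936) at chr9:107935920-107949691 on the plus strand. Camk2a (ENSMUSG00000024617) and Camk4 (ENSMUSG00000038128) are both on chromosome 18. The gene lengths in the files ran from 1291 bases for Camk2n2 to 15928 bases for Camk2d. All 10 passed the filter on low counts in every comparison, and none was at 0 in any library.

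Both lines carried a Cre-dependent EGFP-tagged ribosomal protein L10a (EGFP/Rpl10a) at the ROSA26 locus. In the RBP4-TRAP line the Cre was Tg(RBP4-cre)KL100Gsat/Mmcd, which is active in layer 5 pyramidal cells of the cortex, and in the VGAT-TRAP line it was Slc32a1tm2(cre)Lowl/J, a Cre at the locus of the vesicular GABA transporter (VGAT), which is active in GABAergic neurons. Forebrains were taken at postnatal day 21 and a few animals of both sexes were pooled for each replicate. Each pool gave 4 libraries: the whole-cell homogenate (WCH), the ribosomes pulled from it by the EGFP tag (translating ribosome affinity purification, TRAP), the synaptoneurosomal fraction (SNF), which is enriched in pinched-off synapses, and the tagged ribosomes pulled from that fraction (SynapTRAP, ST). There were 5 pools per line and so 5 libraries in each of 8 groups. Every group carried the reporter and a Cre, and no untagged control was analysed here. The paper describes the RBP4 driver as targeting layer 5, and whether pyramidal cells outside layer 5 were tagged was not tested here. The VGAT driver also tags GABAergic neurons of the striatum.

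CaMKII is a holoenzyme of many subunits, held together by their association domains, and it is among the most abundant proteins of the excitatory synapse. Calcium-bound calmodulin opens each subunit, neighbouring subunits then phosphorylate each other, and the kinase stays active after calcium has fallen. The Camk2a mRNA is a classic dendritic mRNA of forebrain pyramidal cells, the Camk2b product ties the kinase to actin, and the Camk2n1 and Camk2n2 products are small proteins that bind the active kinase and block it. Camkk1 and Camkk2 phosphorylate Camk4, which acts mainly in the nucleus on transcription factors such as CREB.

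The 4 catalytic genes are close relatives, so it was checked whether a read of 50 bases could be shared between them. The longest run of identical coding bases between any pair of them was between 23 and 32 bases, and none reached 50. The runs below are shown because they are the longest identical coding stretches of their pairs. The first lies in exon 5 of Camk2b (GRCm38, chr11:5997883-5997911, minus strand) and in exon 5 of Camk2g (chr14:20770064-20770092, minus strand), and the second in exon 17 of Camk2d (chr3:126834621-126834643, plus strand) and exon 16 of Camk2g (chr14:20739333-20739355, minus strand).
Camk2b and Camk2g: agagagtactacagtgaagctgatgccag
Camk2d and Camk2g: atcaacaatggggactttgaggc
Over all annotated transcripts, 0.293% of the 50-base windows of Camk2a, 0.159% of those of Camk2b and 0.71% of those of Camk4 also occurred in another gene, and none of the windows of the other 7 genes did. The Camk4 exons overlapped another annotated gene over 1.48% of their bases, and whether strand was used in counting was not given in the sources used here.

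Levels are given as cpm, the counts of a gene scaled to a common library total, over the counts left after mitochondrial, rRNA and tRNA genes were taken out. The files held 14259535 to 22037703 counts per library, and 8950847 to 21976631 remained. A single count was therefore worth between 0.0455 and 0.112 cpm, well under the lowest level of any of the 10 genes. A gene was called when its adjusted p in edgeR's quasi-likelihood test was at most 0.05, and replicates were pools of animals, so the tests measure the spread between pools. In tissue of mixed cells, fewer cells of a type and less RNA per cell cannot be told apart. Library labels were read against 5 marker genes for each of 7 cell types before the results. The GABAergic markers summed to 3027 to 5203 cpm in VGAT TRAP and to 92.5 to 437 cpm in RBP4 TRAP, and the glutamatergic projection neuron markers to 45.7 to 297 cpm and 784 to 1228 cpm. The striatal projection neuron markers summed to 1029 to 1938 cpm in VGAT TRAP. In ST the lines were much less apart. The GABAergic markers summed to 258 to 706 cpm in VGAT ST and 205 to 329.9 cpm in RBP4 ST, and the glutamatergic markers to 558 to 848 cpm and 689.8 to 1269 cpm. Of the 5 markers in each of the GABAergic and glutamatergic lists, 0 were called between the lines in ST. Of the 5 striatal markers, 1 was called lower in RBP4 ST than in VGAT ST. The striatal markers summed to 126 to 299 cpm in VGAT ST and 51.9 to 179 cpm in RBP4 ST. The GABAergic markers summed to 249 to 657 cpm in VGAT SNF and 785 to 1193 cpm in VGAT WCH. In VGAT ST, 2 of these 5 were called higher than in SNF and 0 lower, and 5 were lower than in TRAP.

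Several libraries stood apart from the rest of their group. Replicate 5 of RBP4 TRAP was high in markers of several untagged cell types: the oligodendrocyte markers summed to 5448 cpm against 383 to 921 cpm in the other 4 libraries, the astrocyte markers to 1565 cpm against 360.2 to 656 cpm, and the GABAergic markers to 437 cpm against 92.5 to 139 cpm. In VGAT TRAP, replicates 3 and 5 held oligodendrocyte markers at 2383 and 1746 cpm against 426 to 591 cpm in the other 3, astrocyte markers at 966 and 518 cpm against 150.1 to 235 cpm, and glutamatergic markers at 297 and 107 cpm against 45.7 to 71.9 cpm. Replicate 3 of SNF stood apart in both lines, with astrocyte markers at 23513 cpm in RBP4 SNF and 23328 cpm in VGAT SNF, against 8329 to 12138 cpm and 7996 to 10918 cpm in the others. Mitochondrial genes took 40.2% and 41.9% of the counts of these SNF libraries before they were left out, against 11.2% to 18.8% and 13.3% to 19.4%. In RBP4 ST, replicates 3 and 4 held astrocyte markers at 19819.6 and 17789 cpm against 3599 to 6357 cpm in the other 3. Replicate 4 of RBP4 ST also held Slc32a1 at 49.9 cpm against 10.9 to 19.7 cpm, although its Gad1, at 171 cpm, and its GABAergic sum, at 329.9 cpm, were close to those of replicate 1 (200.5 and 322 cpm).

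Marker levels also moved with the fractions. All 5 astrocyte markers were called higher in SNF than in WCH in both lines, with sums of 2415 to 4821 cpm in RBP4 WCH and 8329 to 23513 cpm in RBP4 SNF, and of 2044 to 3998 cpm and 7996 to 23328 cpm in the VGAT-TRAP line. Of the 5 microglia markers, 4 were higher in RBP4 SNF and 5 in VGAT SNF. Of the 5 oligodendrocyte markers, 3 were called higher in ST than in SNF in each line, and 1 lower in the VGAT-TRAP line. Their sums were 31725 to 44616 cpm in RBP4 ST and 32474 to 54545 cpm in VGAT ST, against 11895 to 18475 cpm and 14606 to 17733 cpm in SNF. The part of these cells in the results for SNF, ST and TRAP was not tested.

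**Figure D1:**
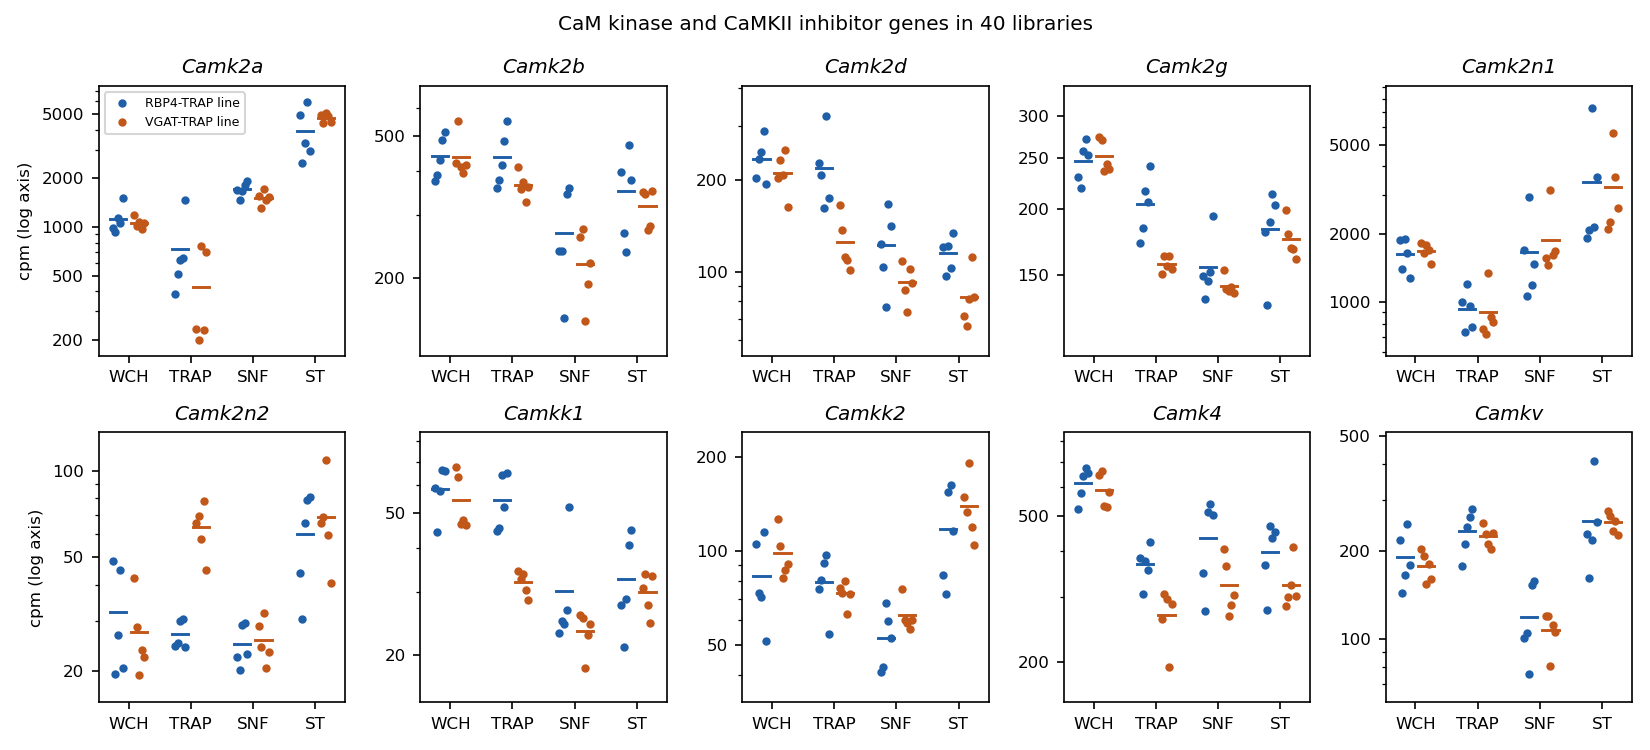
Level of each of the 10 genes in cpm (log axis) in WCH, TRAP, SNF and ST, with 1 point per library, a bar at the mean of 5 libraries, and the RBP4-TRAP line in blue and the VGAT-TRAP line in orange. Camk2a was highest in ST of both lines, where all 10 libraries lay above every other library, and Camk2d was lower in SNF and ST than in WCH.

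Camk2a, the alpha subunit, was highest in the synaptic pulldown of both lines. In the RBP4-TRAP line its level in replicates 1 to 5 was 992, 929, 1143, 1064 and 1519.7 cpm in WCH, and 387, 515, 624, 644 and 1477 cpm in TRAP. It was 1686, 1463, 1665, 1834 and 1931 cpm in SNF, and 4963, 2490.2, 3305, 5981 and 2972 cpm in ST. The ST libraries did not overlap with those of any other RBP4 fraction, and the TRAP library with 1477 cpm, replicate 5, was the one high in oligodendrocyte, astrocyte and GABAergic markers. Camk2a was 2.30-fold higher in RBP4 ST than in SNF (log2 fold change 1.20, SE 0.29, edgeR adjusted p = 0.0095) and 5.40-fold higher in ST than in TRAP (log2 2.43, SE 0.31, adjusted p = 1.13e-06). It was lower in TRAP than in WCH by an amount that missed the threshold (log2 -0.63, SE 0.29, adjusted p = 0.0869), and the value was -1.06 (adjusted p = 0.00122) without TRAP replicate 5. The higher level in SNF than in WCH was seen in all 5 pools (log2 0.60, SE 0.29) and also missed the threshold, with an adjusted p of 0.0875. With the replicate as a block both of these passed, at adjusted p = 0.0329 and 0.0493. The ST over SNF call was lost without pool 1 (log2 1.10, adjusted p = 0.0622) or without pool 4 (log2 1.03, adjusted p = 0.0935), and it held when ST replicate 4 alone was left out (adjusted p = 0.0371).

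In the VGAT-TRAP line the ST libraries lay closer together and the TRAP libraries split. Camk2a was at 1193, 1019.6, 1078, 974 and 1055 cpm in WCH, 234, 199, 760.2, 231 and 698 cpm in TRAP, 1565, 1305, 1726, 1463 and 1529 cpm in SNF, and 4941, 4434, 5078, 4883 and 4465 cpm in ST. None of the 4 fractions overlapped, and the pair of high TRAP libraries, replicates 3 and 5, were those high in oligodendrocyte, astrocyte and glutamatergic markers. They also held Slc17a7, the vesicular glutamate transporter of cortical pyramidal cells, at 155 and 48.8 cpm, against 24.6 to 39.1 cpm in the other 3. Camk2a fell by 1.33 on the log2 scale from WCH to TRAP (SE 0.28, edgeR adjusted p = 0.000393) and by 2.27 without those libraries (adjusted p = 3.17e-10). It was 3.14-fold higher in ST than in SNF (log2 1.65, SE 0.29, adjusted p = 0.000133) and 11.2-fold higher in ST than in TRAP (log2 3.49, SE 0.31, adjusted p = 2.13e-09), with a log2 value of 4.43 against the 3 remaining TRAP libraries. The SNF over WCH difference was 0.51 (SE 0.28, adjusted p = 0.113), with an SE that also draws on the spread of the split TRAP libraries. The difference passed with TMM factors (0.87, adjusted p = 0.0141) and in DESeq2 (0.96, adjusted p = 0.00181). In the RBP4-TRAP line, 1 of the genes followed here was called higher in SNF than in WCH under each of these settings. Slc17a7, which the tagged cells of the VGAT-TRAP line should lack, stood at 396 to 713 cpm in VGAT ST. The part of untagged pyramidal cells in the Camk2a level of VGAT ST was not tested.

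Camk2b, the beta subunit, moved differently. In the RBP4-TRAP line it was at 375, 388, 427, 489 and 514 cpm in WCH, 357, 376, 416, 484 and 553 cpm in TRAP, 238, 238, 155, 344 and 358 cpm in SNF, and 397, 267, 237, 470.4 and 375 cpm in ST. The SNF libraries lay below all of the WCH libraries, whereas TRAP and WCH overlapped along their whole range. Its VGAT levels were 420.5, 549.6, 410.2, 393 and 414 cpm in WCH, 410.5, 354, 371, 325 and 360.1 cpm in TRAP, 260.1, 274, 151, 192 and 219.7 cpm in SNF, and 349, 343, 271, 279 and 349.8 cpm in ST, and SNF was again below all of WCH. Camk2b was lower in SNF than in WCH by a log2 fold change of -0.72 in the RBP4-TRAP line (SE 0.22, edgeR adjusted p = 0.011) and of -0.996 in the VGAT-TRAP line (SE 0.15, adjusted p = 6.45e-06). The first of these calls was lost with TMM factors (adjusted p = 0.109). From SNF to ST it rose in the VGAT-TRAP line (log2 0.54, SE 0.15, adjusted p = 0.00814), although the call was lost without pool 5 (log2 0.50, adjusted p = 0.055). In the RBP4-TRAP line the same difference was 0.39 (SE 0.22, adjusted p = 0.281), with all 5 pools higher in ST. ST and TRAP did not differ beyond the spread in either line, with log2 values of -0.32 (SE 0.22, adjusted p = 0.226) and -0.19 (SE 0.15, adjusted p = 0.24).

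Camk2d and Camk2g, the delta and gamma subunits, are the forms most widely expressed outside the brain. Camk2d was at 202, 234, 246, 288 and 194 cpm in RBP4 WCH, 226, 207, 162, 324 and 174 cpm in TRAP, 123, 104, 76.7, 167 and 141 cpm in SNF, and 120.3, 96.5, 121, 103 and 134 cpm in ST. In VGAT libraries it was at 163 to 249.9 cpm in WCH, 101 to 165 cpm in TRAP, 74.0 to 109 cpm in SNF and 66.3 to 111 cpm in ST, so that SNF and ST overlapped with each other and not with WCH. Camk2d was lower in SNF than in WCH in both lines (log2 -0.93 and -1.18, edgeR adjusted p = 0.00114 and 2.43e-06) and lower in ST than in TRAP in both (log2 -0.93 and -0.60, adjusted p = 0.000639 and 0.00218). Between SNF and ST it did not differ beyond the spread, with log2 values of -0.09 (SE 0.21, adjusted p = 0.837) and -0.17 (SE 0.16, adjusted p = 0.478). It was the only catalytic gene called lower in ST than in TRAP. Camk2g lay between 132 and 273 cpm in all 40 libraries. It fell from WCH to SNF in both lines (log2 -0.66 and -0.82, adjusted p = 0.00181 and 3.45e-07), a call that TMM factors lost in the RBP4-TRAP line (adjusted p = 0.0776). Its rise from SNF to ST in the VGAT-TRAP line was small (log2 0.29, SE 0.09, adjusted p = 0.0195) and was lost with TMM factors (0.19, adjusted p = 0.213) and without pools 1, 2, 4 or 5. The RBP4 value was 0.24 (SE 0.16, adjusted p = 0.356).

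**Figure D2:**
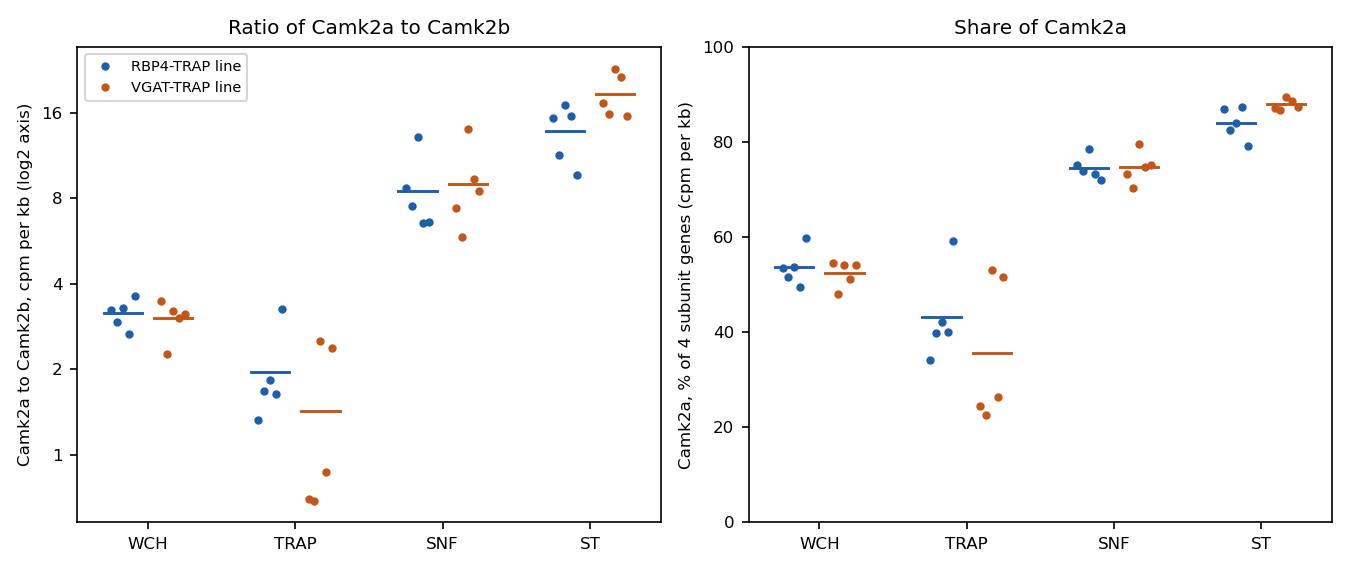
The Camk2a to Camk2b ratio of levels per kilobase (log2 axis, left) and the share of Camk2a in the summed levels per kilobase of the 4 catalytic genes (percent, right), with 1 point per library and a bar at the mean of 5. The ratio was lowest in TRAP and highest in ST of both lines, and the TRAP points of replicates 3 and 5 in the VGAT-TRAP line lay above the other 3.

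The balance of subunits was set out per kilobase of exon. The libraries were primed at the poly(A) end and their reads gather there, so an order between genes depends on dividing by length, whereas the change of a ratio between fractions does not. The Camk2a to Camk2b ratio was 3.14 ± 0.363 (SD, n = 5) in RBP4 WCH, 1.95 ± 0.760 in TRAP, 8.49 ± 2.76 in SNF and 13.8 ± 3.11 in ST. In the VGAT-TRAP line the means were 3.02 ± 0.451, 1.42 ± 0.927, 9.0 ± 3.08 and 18.6 ± 3.33. In VGAT TRAP the ratio was 0.695, 0.687, 2.50, 0.867 and 2.37, so that Camk2b exceeded Camk2a in the 3 libraries low in oligodendrocyte markers. Camk2a made up 53.6% of the summed catalytic levels per kilobase in RBP4 WCH, 43.1% in TRAP, 74.6% in SNF and 84.0% in ST, and 52.5%, 35.7%, 74.7% and 87.9% in the VGAT-TRAP line. The ratio was tested by exact 2-sided permutation of 5 against 5 libraries in a family of 24 tests, in which the smallest possible p of 0.00794 became 0.0317 after adjustment. It was higher in SNF than in WCH in both lines (log2 difference 1.39 and 1.53) and higher in ST than in TRAP in both (2.87 and 3.94), each at the adjusted exact permutation p of 0.0317. ST exceeded SNF in the VGAT-TRAP line at the same p (log2 1.09), and in the RBP4-TRAP line the difference of 0.72 did not pass (adjusted exact permutation p = 0.0762). The lower ratio in TRAP than in WCH did not pass either, at -0.76 and -1.32, both with an adjusted exact permutation p of 0.0762. These tests did not use the pairing of libraries by pool. The ratio was higher in ST than in SNF in all 5 RBP4 pools. It was lower in TRAP than in WCH in all 5 pools of each line. Between the lines the ratio did not differ beyond the spread in WCH (log2 0.07, adjusted exact permutation p = 0.771), TRAP (0.63, 0.314) or ST (-0.44, 0.0866). These ratios were set up after the levels had been seen.

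Camk2n1, the more abundant of the CaMKII inhibitor genes, had the highest mean of the 10 genes per kilobase in all 8 groups, at 366 cpm per kilobase in RBP4 WCH and 766 in RBP4 ST, against 151 and 528 for Camk2a. The ranges of the 2 genes did not overlap in WCH of either line, and overlapped in ST of both. The order in ST rested on replicate 3: without it the means were 548 and 549 cpm per kilobase in RBP4 ST, and 595 and 627 in VGAT ST, for Camk2n1 and Camk2a. Without dividing by length, Camk2a had the higher mean in ST, at 3942 against 3406 cpm and 4760.1 against 3242 cpm. Camk2n1 was at 1879.9, 1403, 1909, 1657 and 1284 cpm in RBP4 WCH, 996, 738, 1205, 960.2 and 771 cpm in TRAP, 1702, 1062, 2938, 1189 and 1475 cpm in SNF, and 1927, 2081, 7284, 2163 and 3575 cpm in ST. In the VGAT-TRAP line it was at 1837, 1648, 1784, 1709 and 1473 cpm in WCH, 755, 720.5, 1345, 859 and 816 cpm in TRAP, 1573, 1459, 3141, 1611 and 1692 cpm in SNF, and 2116, 2267, 5631, 3586 and 2613 cpm in ST. Replicate 3 was the highest library in TRAP, SNF and ST of both lines. It was also the highest for the astrocyte markers in SNF and ST of both lines, at 23513 and 19819.6 cpm in the RBP4-TRAP line and 23328 and 17509.9 cpm in the VGAT-TRAP line, and their part in the Camk2n1 level was not tested. Without pool 3, Camk2n1 was still called higher in ST than in SNF (log2 0.84, edgeR adjusted p = 0.0319, and 0.74, adjusted p = 0.000984) and than in TRAP (1.49, adjusted p = 6.32e-05, and 1.75, adjusted p = 1.14e-08). Camk2n1 was higher in ST than in TRAP in both lines (log2 1.87, SE 0.33, edgeR adjusted p = 5.74e-05, and 1.85, SE 0.26, adjusted p = 1.44e-06). It was higher in ST than in SNF by 1.03 (SE 0.32, adjusted p = 0.042) and 0.77 (SE 0.25, adjusted p = 0.0239), and both of these calls were fragile. The first was lost without pool 1, 2, 4 or 5, at adjusted p values of 0.0749 to 0.125, and the second without pool 2, 4 or 5 and with TMM factors, at 0.0576 to 0.128. SNF and WCH did not differ beyond the spread (log2 0.04 and 0.16, adjusted p = 0.923 and 0.574). In TRAP it was lower than in WCH in the VGAT-TRAP line (log2 -0.91, SE 0.25, adjusted p = 0.0036), and in the RBP4-TRAP line the value of -0.80 (SE 0.32) stood at an adjusted p of 0.0515, or 0.00728 with the replicate as a block.

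The Camk2n1 to Camk2a ratio per kilobase fell from a mean of 4.54 in VGAT TRAP to 1.13 in VGAT ST. That difference of -1.95 on the log2 scale passed (adjusted exact permutation p = 0.0317), whereas -0.92 for VGAT ST over SNF and -0.83 for RBP4 ST over TRAP did not (adjusted exact permutation p = 0.0762 and 0.314). By pool, ST was higher than SNF in 0 of 5 VGAT pools and higher than TRAP in 2 of 5 RBP4 pools.

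Camk2n2, the second inhibitor gene, was lower per kilobase, and its TRAP level was higher in the VGAT-TRAP line. In RBP4 TRAP it was at 24.5, 25.2, 30.0, 30.5 and 24.3 cpm, and in VGAT TRAP at 66.0, 69.8, 58.0, 78.4 and 44.96 cpm, with no overlap. WCH libraries of the lines overlapped fully, at 19.7 to 48.5 cpm and 19.5 to 42.3 cpm. In ST the levels were 44.1, 30.4, 65.7, 79.1 and 80.9 cpm in the RBP4-TRAP line and 65.6, 69.0, 109, 59.8 and 40.7 cpm in the VGAT-TRAP line, and SNF libraries of both lines lay between 20.2 and 32.0 cpm. Camk2n2 rose 2.32-fold from WCH to TRAP in the VGAT-TRAP line (log2 1.21, SE 0.23, edgeR adjusted p = 9.61e-05) and was at -0.26 (SE 0.26, adjusted p = 0.45) in the RBP4-TRAP line. It was higher in ST than in SNF in both, 2.42-fold in the RBP4-TRAP line (log2 1.27, SE 0.27, adjusted p = 0.00302) and 2.67-fold in the VGAT-TRAP line (log2 1.42, SE 0.23, adjusted p = 5.89e-05). ST exceeded TRAP 2.23-fold in the RBP4-TRAP line (log2 1.16, adjusted p = 0.000775), and the VGAT value was 0.11 (SE 0.22, adjusted p = 0.651).

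Of the upstream kinases, Camkk2 was called higher in ST than in SNF in both lines, and Camkk1 in the VGAT-TRAP line alone. Camkk1 was at 59.0, 44.3, 57.9, 66.1 and 66.0 cpm in RBP4 WCH, 44.8, 45.5, 64.4, 52.3 and 65.2 cpm in TRAP, 23.1, 24.9, 24.4, 26.7 and 52.0 cpm in SNF, and 27.7, 21.0, 28.6, 40.8 and 45.04 cpm in ST. Camkk2 was at 105, 73.2, 70.9, 115 and 51.6 cpm in WCH, 75.3, 80.5, 91.5, 97.0 and 54.0 cpm in TRAP, 40.8, 42.5, 67.9, 59.5 and 52.5 cpm in SNF, and 83.8, 72.9, 154, 162 and 116 cpm in ST. Within each pool SNF was below ST for Camkk2, and the highest SNF library for Camkk1 was replicate 5. Among VGAT libraries, Camkk2 was at 127, 104, 81.8, 87.1 and 91.0 cpm in WCH, 76.3, 73.0, 80.1, 62.9 and 72.8 cpm in TRAP, 75.7, 60.2, 58.9, 56.1 and 60.2 cpm in SNF, and 149, 133, 192, 119 and 104 cpm in ST. Camkk1 there ran from 46.4 to 67.7 cpm in WCH, 28.6 to 34.3 cpm in TRAP, 18.3 to 25.9 cpm in SNF and 24.5 to 33.7 cpm in ST. Both genes were lower in SNF than in WCH in both lines: Camkk1 at -0.96 and -1.22 (edgeR adjusted p = 0.00215 and 2.77e-07), and Camkk2 at -0.66 in each (adjusted p = 0.0286 and 0.0006). The Camkk2 calls were lost with TMM factors, at adjusted p values of 0.378 and 0.152, and the first also without pool 1, 2 or 4, at adjusted p values up to 0.173. From SNF to ST, Camkk2 was higher by 1.16 on the log2 scale in each line (SE 0.25 and 0.15, adjusted p = 0.00315 and 4.14e-06), with ST above SNF in all pools. Camkk1 was at 0.11 (SE 0.23, adjusted p = 0.814) in the RBP4-TRAP line and at 0.36 (SE 0.13, adjusted p = 0.0489) in the VGAT-TRAP line, where the call was lost without any of the 5 pools (adjusted p of 0.0606 to 0.139) and with TMM factors (0.17).

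Against TRAP, Camkk1 was lower in RBP4 ST (log2 -0.74, SE 0.23, adjusted p = 0.00952), a call that was lost without pool 3 (log2 -0.63, adjusted p = 0.0602). Camkk2 was higher in VGAT ST (log2 0.93, SE 0.15, adjusted p = 9.1e-06). Its RBP4 value of 0.56 (SE 0.24) stood at an adjusted p of 0.052, and at 0.0258 with the replicate as a block. In TRAP both genes were lower than in WCH in the VGAT-TRAP line, Camkk1 at -0.77 (SE 0.13, adjusted p = 4.24e-05) and Camkk2 at -0.43 (SE 0.15, adjusted p = 0.0163). The second of these calls was lost with TMM factors (-0.17, adjusted p = 0.389), with no genes left out (-0.36, adjusted p = 0.0613) and without pool 1 or 2 (adjusted p = 0.077 and 0.0678).

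Camk4 was lower in TRAP and in SNF than in WCH in both lines and did not differ beyond the spread between SNF and ST. Its level in RBP4 WCH was 523, 576, 640.1, 674 and 655 cpm, in TRAP 384, 306, 375, 356 and 424 cpm, in SNF 348, 275, 512, 537 and 501 cpm, and in ST 366, 276, 468, 434 and 450.5 cpm. The TRAP libraries lay below all WCH libraries, and those of SNF and ST overlapped. The VGAT libraries showed the same order, at 528 to 660.1 cpm in WCH, 194 to 306 cpm in TRAP, 266 to 404 cpm in SNF and 284 to 411 cpm in ST. The log2 fold change from WCH to TRAP was -0.73 (SE 0.19, edgeR adjusted p = 0.00442) in the RBP4-TRAP line and -1.13 (SE 0.15, adjusted p = 1.44e-06) in the VGAT-TRAP line, and TMM factors took the first to -0.45 (adjusted p = 0.0635). SNF was lower than WCH by 0.50 and 0.86 on the log2 scale (adjusted p = 0.0352 and 3.16e-05), a call that was lost in the RBP4-TRAP line with TMM factors (adjusted p = 0.545) and without pool 1, 2, 3 or 4 (adjusted p of 0.0513 to 0.102). ST over SNF was -0.12 (SE 0.19, adjusted p = 0.733) and -0.00 (SE 0.15, adjusted p = 0.994).

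Camkv, which binds calmodulin without acting as a kinase, was at 219.7, 144, 166, 249 and 180.3 cpm in RBP4 WCH, 178, 212, 242, 264 and 280.3 cpm in TRAP, 101, 105, 75.5, 153 and 159 cpm in SNF, and 230.4, 162, 219.6, 411 and 252.2 cpm in ST. The VGAT values were 205, 193, 154, 181 and 161 cpm in WCH, 250.4, 230.2, 212, 204 and 231 cpm in TRAP, 120.0, 120.0, 80.6, 111 and 106 cpm in SNF, and 275, 266, 236, 255 and 227 cpm in ST. SNF did not overlap with any other fraction of that line. Camkv was lower in SNF than in WCH in both lines (log2 -0.69 and -0.73, edgeR adjusted p = 0.0187 and 1.82e-05) and higher in ST than in SNF in both (log2 1.11 and 1.23, adjusted p = 0.00373 and 1.06e-07). Its ST and TRAP levels did not differ beyond the spread (log2 0.12, adjusted p = 0.691, and 0.16, adjusted p = 0.231). The SNF over WCH call in the RBP4-TRAP line was lost with TMM factors (-0.37, adjusted p = 0.179), without pool 1 (-0.59, adjusted p = 0.103) and without pool 3 (-0.62, adjusted p = 0.0633). The small rise from WCH to TRAP in the VGAT-TRAP line (log2 0.33, SE 0.12, adjusted p = 0.0182) was lost without pool 5 (0.29, adjusted p = 0.0969), and the RBP4 value was 0.29 (SE 0.24, adjusted p = 0.33).

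**Figure D3:**
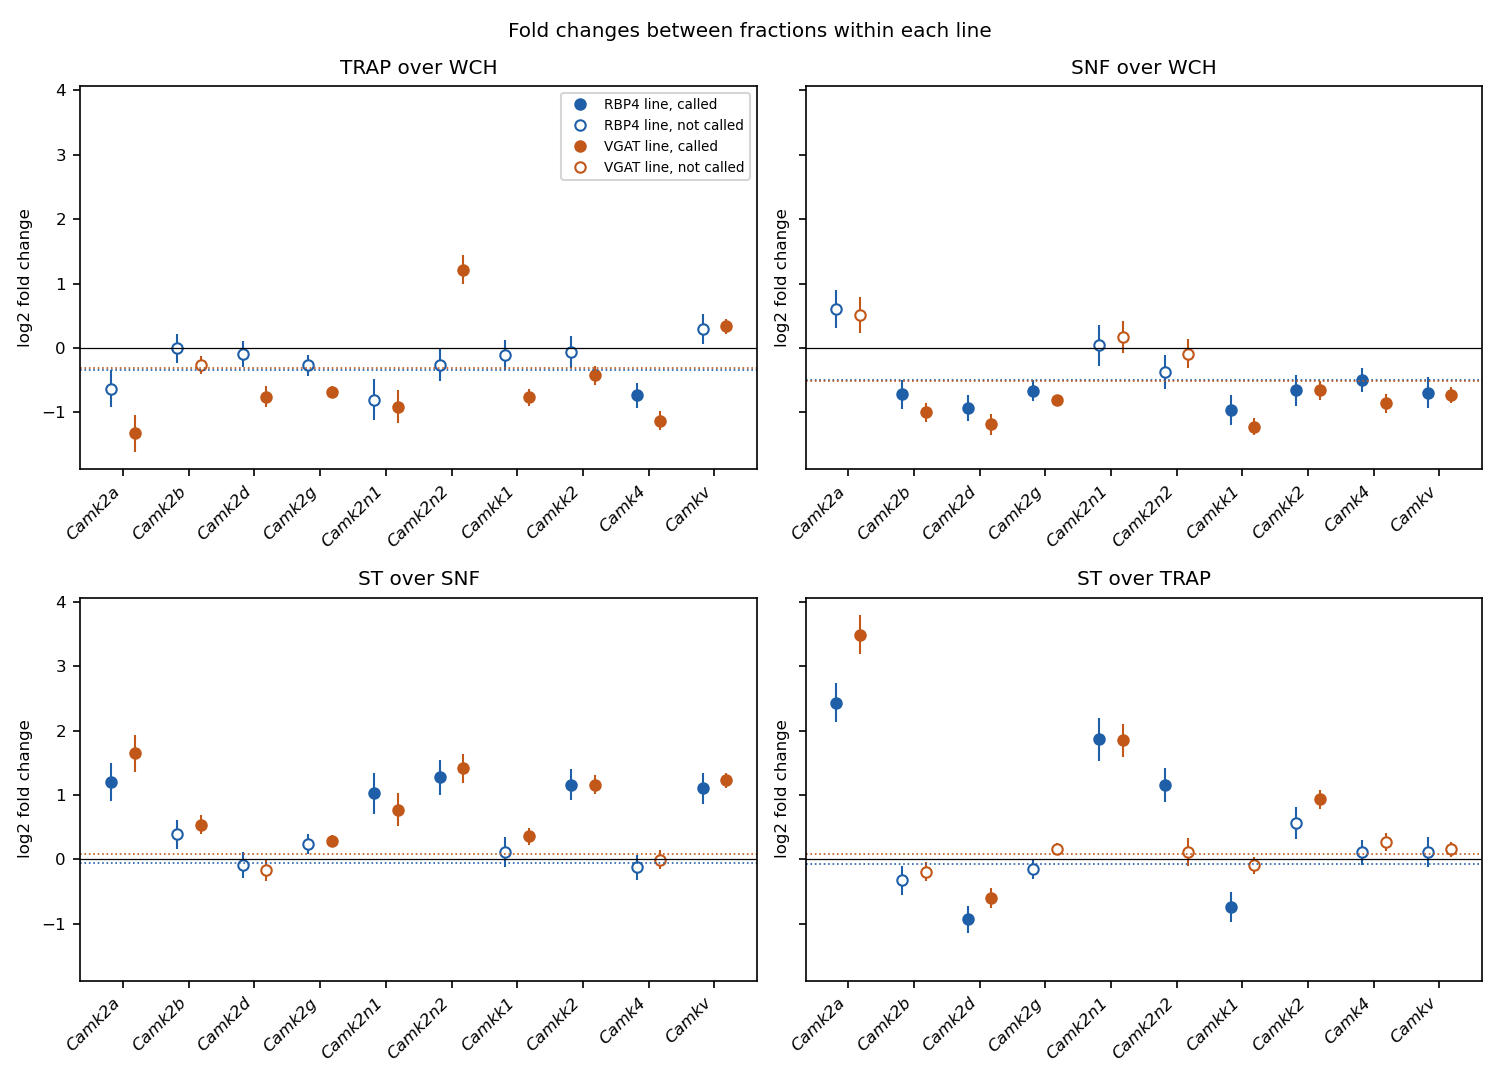
Log2 fold change (± SE) of each of the 10 genes for TRAP over WCH, SNF over WCH, ST over SNF and ST over TRAP, with the RBP4-TRAP line in blue, the VGAT-TRAP line in orange, filled points for called genes and dotted lines at the median of all genes tested in each line. Points for SNF over WCH lay mostly below 0 with Camk2a and, by little, Camk2n1 above it, and the called points for ST over SNF all lay above 0.

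Counted over the 10 genes, the steps differed. Between SNF and WCH, 0 were called higher and 7 lower in the RBP4-TRAP line, where 49.6% of all genes tested were called, 13.4% higher and 36.1% lower. In the VGAT-TRAP line 0 were higher and 7 lower, where 64.5% of all genes were called, 19.3% higher and 45.2% lower. These splits depend on the scaling: over all genes, 3284 were higher and 3048 lower with TMM factors and 3773 and 2515 in DESeq2 for RBP4, against 2286 and 6161, and for VGAT 4187 and 4747 with TMM factors and 4572 and 3929 in DESeq2, against 3283 and 7680. The 3 genes not called lower were Camk2a, Camk2n1 and Camk2n2 in both lines. Between ST and SNF, 5 were higher and 0 lower in the RBP4-TRAP line, where 11.1% of all genes were called, 5.64% higher and 5.46% lower. In the VGAT-TRAP line 8 were higher and 0 lower, where 27.5% of all genes were called, 16.3% higher and 11.2% lower, and there too the split turned, from 2771 higher and 1905 lower to 1987 and 2480 with TMM factors and 1991 and 3017 in DESeq2. The 5 genes called in both lines were Camk2a, Camk2n1, Camk2n2, Camkk2 and Camkv. The median log2 fold change of the 10 genes was 0.71 and 0.66, against -0.05 and 0.08 over all genes tested. For SNF over WCH it was -0.66 and -0.77, against -0.50 and -0.52 over all genes.

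Between TRAP and WCH, 0 genes were higher and 1 lower in the RBP4-TRAP line, where 39.9% of all genes were called, 8.37% higher and 31.5% lower. For VGAT, 2 were higher and 7 lower, where 62.8% were called, 21% higher and 41.8% lower. With TMM factors the split was 3296 higher and 3815 lower for RBP4, against 1427 and 5372, and 4987 and 5530 for VGAT, against 3561 and 7106. Between ST and TRAP, 3 were higher and 2 lower in the RBP4-TRAP line, where 55.1% of all genes were called, 26% higher and 29.1% lower. For VGAT, 3 were higher and 1 lower, where 71.5% were called, 37.5% higher and 34% lower. The groups of 5 libraries did not overlap for 4 of the 10 genes in RBP4 ST over SNF and for 5 of 10 in VGAT ST over SNF, against 6.64% and 15.4% of all genes. For SNF over WCH this held for 3 and 8 of the 10 (37.6% and 52.1% of all genes), for TRAP over WCH for 2 and 7 (30.2% and 51.6%), and for ST over TRAP for 3 and 3 (33% and 51.1%). Comparisons of a line that use the same libraries are not independent, since a high SNF library lowers ST over SNF and raises SNF over WCH.

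**Figure D4:**
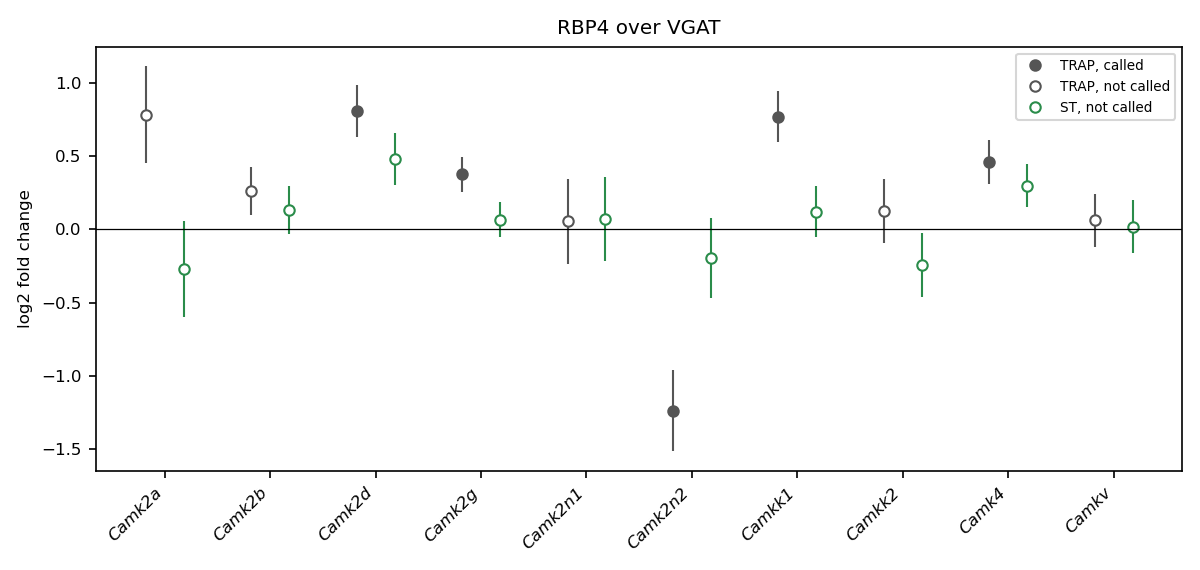
Log2 fold change (± SE) of the RBP4-TRAP line over the VGAT-TRAP line for each of the 10 genes in TRAP and in ST, with filled points for called genes. In TRAP, Camk2d, Camk2g, Camkk1 and Camk4 lay above 0 and Camk2n2 below it among the called genes, and no gene was called in ST.

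The lines were compared within each fraction in the 30 WCH, TRAP and ST libraries together. In WCH none of the 10 genes was called, where 0.0118% of all genes were called (0.00592% in each direction), and the log2 values ran from -0.24 for Camkk2 to 0.23 for Camk2n2. In TRAP 4 were higher and 1 lower in the RBP4-TRAP line than in the VGAT-TRAP line, and 28% of all genes were called, 12.9% higher and 15.1% lower. The 4 were Camk2d (log2 0.81, SE 0.18, edgeR adjusted p = 0.000785), Camkk1 (0.77, SE 0.17, adjusted p = 0.000983), Camk4 (0.46, SE 0.15, adjusted p = 0.0213) and Camk2g (0.38, SE 0.12, adjusted p = 0.0197), and the 1 was Camk2n2 (-1.24, SE 0.28, adjusted p = 0.000886). Leaving out the 3 TRAP libraries high in oligodendrocyte markers ended the Camk2g and Camk4 calls (0.29, adjusted p = 0.175, and 0.48, adjusted p = 0.0596) and brought Camk2a, at 0.78 (SE 0.33, adjusted p = 0.0761) with all libraries, to 1.30 (adjusted p = 0.000156). The Camk2g and Camk4 calls were also lost without RBP4 pool 5 (adjusted p = 0.0647 and 0.0552) or VGAT pool 1 (0.0508 and 0.0507), and that of Camk4 without VGAT pool 4 (0.0764).

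In ST none of the 10 genes was called between the lines, where 0.325% of all genes were called, 0.0592% higher and 0.266% lower. Camk2a stood at -0.27 (95% interval -0.92 to 0.37), Camk2n1 at 0.07 (-0.49 to 0.64), Camk2n2 at -0.19 (-0.73 to 0.34) and Camk2d at 0.48 (0.13 to 0.83, edgeR adjusted p = 0.291). Camk2d was the 1 gene under an unadjusted p of 0.05. The groups overlapped for all 10 genes in ST and in WCH, where 1.36% and 1.56% of all genes did not, and in TRAP they did not overlap for 3 of 10, against 22.8% of all genes.

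Whether the difference between lines changed from TRAP to ST was tested as an interaction, where 10.8% of all genes were called, 5.02% with a positive and 5.79% with a negative value. None of the 10 was called, and 3 were under an unadjusted p of 0.05: Camk2a at -1.05 (95% interval -1.97 to -0.14, edgeR adjusted p = 0.156), Camk2n2 at 1.04 (0.29 to 1.80, adjusted p = 0.0817) and Camkk1 at -0.65 (-1.13 to -0.17, adjusted p = 0.0897). DESeq2 called 1, Camk2n2 (adjusted p = 0.0429). Without the 3 TRAP libraries high in oligodendrocyte markers the Camk2a value was -1.57 and was called (adjusted p = 0.00062). Camk2n2 was called without RBP4 pool 2 (1.19, adjusted p = 0.0357) or VGAT pool 3 (1.30, adjusted p = 0.0278), and Camkk1 without RBP4 pool 5 (-0.72, adjusted p = 0.0482). The change from SNF to ST was tested between lines over all 40 libraries, and 0 of the 10 genes and 0% of all genes were called. The values ran from -0.45 for Camk2a (95% interval -1.27 to 0.37) to 0.25 for Camk2n1 (-0.58 to 1.08), and 0 of the 10 were under an unadjusted p of 0.05.

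Local translation candidates were genes that passed an unadjusted p of 0.05 in both steps, for a higher level in SNF than in WCH and for a further gain in ST over SNF. Camk2a met it in the RBP4-TRAP line, with an unadjusted p of 0.0490 for SNF over WCH, and it was the 1 of the 10 genes to do so, where 0.417% of all genes tested did. None of the 10 met it in the VGAT-TRAP line, where 1.29% of all genes did. When both steps had to pass the adjusted threshold, none of the 10 met the rule in either line. Without any 1 of the RBP4 pools 1 to 4 Camk2a did not meet the unadjusted rule. In the VGAT-TRAP line Camk2a met the unadjusted rule with TMM factors, in DESeq2 and without the TRAP libraries high in oligodendrocyte markers. The paper names Camk2a among the local translation candidates of both lines, which differs from the VGAT result of the main fit. Its candidate lists are also longer as a whole: here 71 genes met the rule in the RBP4-TRAP line and 220 in the VGAT-TRAP line. The paper reports likelihood ratios from edgeR and a default FDR filter, whereas the rule here used unadjusted p from the quasi-likelihood test.

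Per kilobase, the order of the genes was fixed at both ends in most groups and changed in between. Camk2n1 and Camk2a had the first and second means in 7 of the 8 groups, and in VGAT TRAP Camkv (74.4 cpm per kilobase) came before Camk2a (56.8), with overlapping ranges. In VGAT ST Camk2n1 stood at 729.6 and Camk2a at 638, overlapping, with a gap to Camkv at 83.1, Camk2n2 at 53.2 and Camk2g at 47.4. Camkk1 (8.04) and Camk2d (5.18) were the lowest, and overlapped. In RBP4 ST the order was alike at the top, with Camk2n1 at 766, Camk2a at 528 and Camkv at 84.2. The last pair was again Camkk1 (8.76) and Camk2d (7.22), as in all 8 groups. The last place of Camk2d depended on dividing by length. In cpm its mean was above those of Camkk1 and Camk2n2 in every group. For Camk2d, Camkk1 and Camk2n2 the means were 233, 58.7 and 32.2 cpm in RBP4 WCH. In VGAT ST they were 82.5, 30.0 and 68.7 cpm.

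The other genes of the calcium/calmodulin pathway gave the setting for these values. The list held 34 genes: calmodulins, calmodulin-binding proteins, further CaM kinases, calcineurin subunits and regulators, CaM kinase phosphatases, calmodulin-stimulated adenylyl cyclases, synaptic partners and substrates, and targets of the CaM kinase kinases. For ST over SNF, 4 were higher and 2 lower in the RBP4-TRAP line, and 10 higher and 3 lower in the VGAT-TRAP line, where 5.64% and 5.46%, and 16.3% and 11.2%, of all genes were. Among those higher in both lines were Shank3, a scaffold of the postsynaptic density (log2 2.32 and 2.46), Dlg4, which encodes PSD-95 (0.97 and 1.18), and the calmodulin gene Calm3 (0.71 and 0.69). The receptor subunit genes Grin2b (-1.04 and -1.03) and Gria1 (-0.75 and -0.58) were lower in both. For SNF over WCH, 4 were higher and 20 lower in the RBP4-TRAP line, and 5 higher and 25 lower in the VGAT-TRAP line, beside 13.4% and 36.1%, and 19.3% and 45.2%, of all genes. Grin2b (0.83 and 0.68), Gria1 (0.83 and 0.98) and the calmodulin-stimulated adenylyl cyclase genes Adcy8 (0.83 and 1.15) and Adcy1 (0.81 and 0.76) were higher in both. The calmodulin gene Calm2 (-1.30 and -1.48), the calcineurin subunit genes Ppp3r1 (-1.15 and -1.27) and Ppp3ca (-1.13 and -1.12), and Creb1 (-0.72 and -0.85) were lower in both.

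For TRAP over WCH, 10 of the 34 were higher and 11 lower in the RBP4-TRAP line, and 7 higher and 13 lower in the VGAT-TRAP line, beside 8.37% and 31.5%, and 21% and 41.8%, of all genes. Pcp4, which encodes a small calmodulin-binding protein, was higher in both (log2 1.18 and 1.82), whereas the calcineurin regulators Rcan2 (-0.56 and 1.28) and Rcan3 (-1.74 and 0.87) moved in opposite directions. Between the lines in TRAP, 9 were higher and 4 lower in the RBP4-TRAP line, beside 12.9% and 15.1% of all genes. Grin2a (1.23) and the neurogranin gene Nrgn (1.02) were among the higher, and Rcan3 (-2.63), Rcan2 (-2.27) and Pcp4 (-0.82) among the lower. None of the 34 was called between the lines in ST. The interaction called 5 of the 34, beside 10.8% of all genes, among which Rcan3 (2.66) and Rcan2 (2.13) were positive and Grin2a (-1.77) and Crem (-0.78) negative. Crem, a CREB relative, was named after its value was seen.

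Likeness of pattern was described by Pearson's r over the 8 group means of log2(cpm + 1), among the 9113 genes whose mean reached 10 cpm. The groups share pools and libraries were scaled alike, so the values are descriptions. Trak2 (0.994), Inpp5d (0.988) and Neurl1b (0.987) were most like Camk2a, Vps26b (0.990), Pias3 (0.989) and Actr1a (0.987) most like Camk2b, and Dmd (0.994), Acaca (0.992) and Fmnl2 (0.992) most like Camk2n1. Among the members, Camk2a and Camk2n1 had an r of 0.961, Camk2b and Camkk1 0.909, and Camk2b and Camk2g 0.853. Camk2a and Camk2b had an r of -0.37.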

How the data were processed

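RNA of 40 libraries was converted to cDNA with a SMARTer Ultra Low kit and sequenced as single reads of 50 bases. The authors aligned reads with STAR 2.0.4b, used featureCounts 1.4.5 to assign reads with a single alignment to genes, and deposited the raw counts. The deposited CPM and RPKM columns equalled values recomputed from those counts (largest differences 4.07e-10 and 4.91e-11) and were not used further. Gene coordinates are those of the files (GRCm38). They equal GENCODE M21, which gave gene types and exons here, except for Camk2d, Camkk2, Camk4 and Camkv.

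Counts of mitochondrial (37) and rRNA or tRNA (353) genes were taken out, and the remaining total was the library size with no further factor. Mitochondrial genes held 0.0584% to 41.9% of the counts of a library. Genes with at least 0.5 cpm in 3 libraries were kept: 17043 and 16990 in the fits of the 20 libraries of each line, and, by TRAP and ST libraries, 16898 in the fits across lines. edgeR 4.0.16 (R 4.3.3; glmQLFit and glmQLFTest, group as the only term) gave log2 fold changes, SEs (the fold change over the square root of F) and Benjamini-Hochberg adjusted p values over all genes tested. The alternatives were TMM factors, DESeq2 1.42.0, a likelihood ratio test, no genes left out, other filters on low counts, a replicate block and leaving out each pool. The fit was run on simulated data, and the outcome is not reported here. Ratios, exact permutation tests and descriptions were computed in pandas 2.3.3, scipy 1.17.1 and numpy 2.4.6 (Python 3.11.15), and figures were drawn with matplotlib 3.10.9.

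Libraries were grouped by line and fraction as labelled. The 4 libraries of a numbered replicate came from 1 pool, per the methods of the study; deviations from the group means correlated within a line at a mean r of 0.239 for the same pool and -0.059 for different pools, the lowest pair of libraries from 1 pool being at -0.344. No replicate pair differed by as little as counting noise (lowest chi-square per degree of freedom 8.42). All 10 genes were named with their values. Pathway genes were counted and named where they passed in both lines or differed between TRAP libraries, and for 3 genes the 3 most similar in pattern were named. Some pathway genes that were counted are not reported here by name. The genes and lists were chosen with earlier results of these data known. The Camk2a to Camk2b and Camk2n1 to Camk2a ratios, leaving out TRAP libraries high in myelin genes, and comparing Camk2n1 with Camk2a per kilobase without each replicate, were added after the data were seen.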

Additional observations from a re-analysis of the deposited data

Results flagged for a closer look

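In each group of 5 libraries, Dixon's test at the 95% level was applied to the highest and lowest library of each of the 10 genes. Of the 80 groups, 8 held a library far from the others, and chance alone sets apart about 1 in 20. Camk2a stood at 1477 cpm in replicate 5 of RBP4 TRAP, against 387 to 644 cpm in the other 4, in the library whose oligodendrocyte markers summed to 5448 cpm and astrocyte markers to 1565 cpm. Camk2n1 stood at 1345 cpm in replicate 3 of VGAT TRAP, where the oligodendrocyte markers summed to 2383 cpm, and at 3141 cpm in replicate 3 of VGAT SNF. In that SNF library the astrocyte markers summed to 23328 cpm against 7996 to 10918 cpm in the other 4, and mitochondrial genes took 41.9% of the counts, while the oligodendrocyte markers, at 16931 cpm, lay within the range of the group. The part of these cells in the levels was not tested. In replicate 5 of RBP4 SNF, Camk2g was at 195 cpm and Camkk1 at 52.0 cpm, each the highest of its group. In replicate 1 of VGAT SNF, Camk2g was at 153 cpm and Camkk2 at 75.7 cpm, again the highest of their groups. Camk2b was at 549.6 cpm in replicate 2 of VGAT WCH, against 393 to 420.5 cpm in the other 4.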

How the results depend on the processing

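Of 51 called fold changes of the 10 genes, none changed direction under any alternative. All 51 held in the likelihood ratio test, with at least 1 cpm in 5 libraries and with the replicate block; 50 held with no genes left out, 48 without the TRAP libraries high in myelin genes, 46 with no filter on low counts, 42 in DESeq2 and 40 with TMM factors, and the cause was not tested. TMM factors moved the median of all genes in the RBP4-TRAP line to -0.05 for TRAP over WCH, -0.17 for SNF over WCH, -0.01 for ST over SNF and 0.02 for ST over TRAP, from -0.34, -0.50, -0.05 and -0.07.

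For RBP4 TRAP over WCH the count of 1 called gene became 2 in DESeq2, with 1 higher and 1 lower. The count became 2, both lower, in the likelihood ratio test, with 1 cpm in 5 libraries and without the TRAP library high in myelin genes. It was 1 to 2 without single pools or ST replicate 4. For RBP4 SNF over WCH the 7, all lower, became 3 with TMM factors and in DESeq2, with 1 higher and 2 lower in each. Without single pools the count was 4 to 8. For RBP4 ST over SNF the 5 became 3 to 5 without single pools. For VGAT ST over SNF the 8 became 5 with TMM factors and 4 to 7 without single pools. For TRAP between lines the 5 became 3 with no filter and 3 to 6 without single pools. For the interaction of ST and TRAP the 0 became 1 in DESeq2 and without the TRAP libraries high in myelin genes, and 0 to 1 without single pools. The 1 candidate of the RBP4-TRAP line became 0 with no genes left out, with 1 cpm in 5 libraries, with the adjusted rule, and 0 to 1 without single pools. The 0 of the VGAT-TRAP line became 1 with TMM factors (Camk2a), 2 in DESeq2 (Camk2a and Camk2n1) and 1 without the TRAP libraries high in myelin genes.

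The replicate block followed the pools within a line. It raised the count for RBP4 TRAP over WCH to 3 and changed no other count by over 1.5 times. Between lines the replicates share a number (mean r 0.197 for equal and -0.040 for unequal numbers), and there the block put Camk2a in TRAP at 0.81 (adjusted p = 0.0481). Among genes not called, the block turned Camk2n1 in RBP4 SNF over WCH to -0.063 and Camk4 in VGAT ST over SNF to 0.016.

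With no genes left out, Camk2n1 was -0.26 and -0.18 for SNF over WCH in the RBP4-TRAP and VGAT-TRAP lines, Camk2d 0.11 and 0.051 and Camk4 0.12 and 0.21 for ST over SNF, and Camk2n2 -0.014 for VGAT ST over TRAP. Camk2n2 was 0.037 with TMM factors and 0.045 in DESeq2 for RBP4 TRAP over WCH, and -0.056 for VGAT ST over TRAP without the TRAP libraries high in myelin genes. Leaving out single pools gave, for Camk2n1, -0.20 to 0.15 (RBP4 SNF over WCH), -0.074 to 0.26 (VGAT SNF over WCH) and -0.41 to 0.36 (ST between lines). It gave -0.24 to 0.087 for Camk2d and -0.024 to 0.25 for Camkk1 (RBP4 ST over SNF), -0.12 to 0.21 for Camkv (RBP4 ST over TRAP) and -0.15 to 0.13 for Camk4 (VGAT ST over SNF). For Camk2n2 it gave -0.14 to 0.25 (VGAT ST over TRAP) and -0.33 to 0.031 (ST between lines). The Camk2a to Camk2b ratio in WCH between lines ran from -0.034 to 0.12.

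With 5 pools a group, the SE of a log2 fold change was 0.09 to 0.33 within a line.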
